A study of Rattus norvegicus with 20 samples.

Results

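The 5 obese and the 5 resveratrol arrays of red tibialis anterior (red TA), an oxidative part of a hindlimb muscle, were pooled and compared with the 5 lean control arrays. These are 15 of the 20 arrays of the series, chosen by their group labels alone, and the 5 rosiglitazone arrays entered only the estimate of the spread. The labels describe all rats, the lean controls among them, as male ZDF rats with the strain label Zucker, whereas the paper sets the lean controls apart from its ZDF rats. The rats were housed singly on a reversed light and dark cycle with free access to food and water. The lean control rats ate a standard chow and the obese rats a stock diet for 6 weeks. The labels of the resveratrol rats give the compound, a plant polyphenol, without dose, duration or genotype. No age is given for any group, and the labels do not say which diet the treated rats ate. The paper describes the experiment as a treatment of diabetic rats. Pooling therefore asks what separates these rats from lean controls whether or not they had received resveratrol, and diet and genotype cannot be told apart in this contrast. Values are log2 expression levels from Affymetrix Rat Gene 2.1 ST arrays, 1 biological replicate per array according to the labels, which name no litter or batch.

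The leptin receptor of obese ZDF rats does not work, and they overeat and become diabetic. Red muscle takes its energy mainly from mitochondria, which burn fatty acids, glucose, ketone bodies and the carbon of branched-chain amino acids, and each fuel enters through enzymes of its own. Between the fibres lie fibroblasts, capillaries and the collagen-rich matrix, all of which contribute RNA to a piece of muscle.

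Of 14557 genes, 13 passed the test (limma, adjusted p under 0.05), 0.0893% of those tested. Bdh1, Aldh6a1, Tgfb1, Wls, Ccbe1, Aplnr, Ufm1, Cd302, Cdpf1 and Tcp11l2 fell in the pooled arrays (10 genes, 0.0687%), and Rccd1, Pkdcc and Sash3 rose (3 genes, 0.0206%). At an adjusted p under 0.1 there were 44 genes (0.302%), 12 higher (0.0824%) and 32 lower (0.22%). At an unadjusted p under 0.05 there were 1511 (10.4%), 665 higher (4.57%) and 846 lower (5.81%), where 728 would be expected by chance. The same 5 lean arrays gave 1 called gene against the obese arrays alone (0.00687%) and 2 against the resveratrol arrays alone (0.0137%), with 1570 (10.8%) and 1256 (8.63%) at an unadjusted p under 0.05. The median 95% interval of a log2 difference reached 0.248 to either side in the pooled comparison and 0.286 for either group alone. Apart from Bdh1, each call was lost when some single arrays were left out: 8 of the 15 arrays, removed one at a time, left Bdh1 as the 1 called gene. Bdh1 was also the 1 called gene when the rosiglitazone arrays were left out of the fit, so the other 12 calls rest on the spread estimated with those arrays. Another scaling changed the split of 3 higher and 10 lower, to 1 and 15 with median centring and to 3 and 3 with quantile normalisation.

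**Figure D1:**
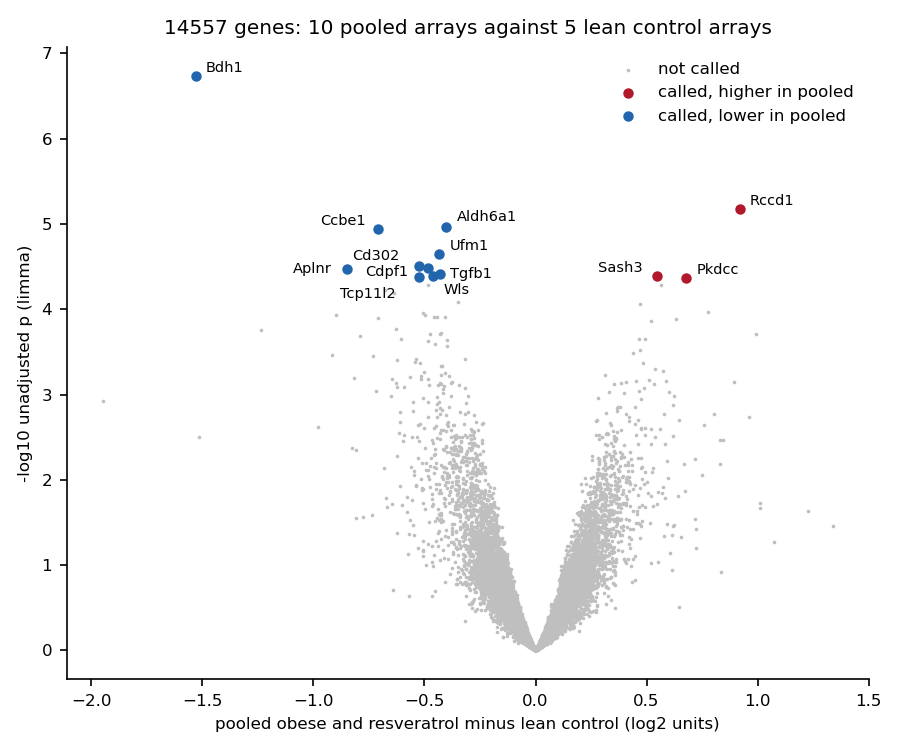
Each point is 1 of 14557 genes, with the pooled obese and resveratrol mean minus the lean control mean on the x axis (log2 units) and the -log10 of the unadjusted p from limma on the y axis. The 13 called genes are coloured and named, and Bdh1 at -1.53 stands apart from the rest.

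Both metabolic enzymes among the called genes are mitochondrial, and the 250 bases before their start sites (RefSeq, GRCr8) are shown so that the sequence stands beside the values that follow. Capitals mark matches on either strand to the GC box GGGCGG, the CCAAT box or the D-box TTATGNAA, a site of clock-controlled PAR-bZIP factors. The Bdh1 window is chr11:82842637-82842886 and the Aldh6a1 window is chr6:109829726-109829975, both on the minus strand and printed 5′ to 3′.
Bdh1: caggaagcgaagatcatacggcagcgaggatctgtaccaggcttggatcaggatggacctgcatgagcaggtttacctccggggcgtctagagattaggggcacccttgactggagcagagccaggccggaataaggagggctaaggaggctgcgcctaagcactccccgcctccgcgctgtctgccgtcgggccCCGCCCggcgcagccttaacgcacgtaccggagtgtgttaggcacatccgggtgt
Aldh6a1: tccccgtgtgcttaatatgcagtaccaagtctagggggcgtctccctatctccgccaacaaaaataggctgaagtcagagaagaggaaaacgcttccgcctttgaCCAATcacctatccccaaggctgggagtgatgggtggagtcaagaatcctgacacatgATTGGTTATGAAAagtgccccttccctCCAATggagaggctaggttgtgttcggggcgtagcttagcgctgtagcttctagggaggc
The longest run of capitals in Aldh6a1 is a CCAAT box on the other strand followed directly by the D-box. Sequences were at hand for 8 of the 13 called genes. A GC box was found in 4 of the 8 (Bdh1, Cdpf1, Wls and Pkdcc) and in 30.5% of 33469 promoters of the same length. A CCAAT box was found in 1 of the 8 and in 34.0% of all, and a D-box in 1 of the 8 and in 3.28% of all. The E-box CACGTG (5.59% of all) and the nuclear receptor element DR1 (0.0508% of all) had no match in the 8 windows. The CCAAT and GC boxes were added to the search after results had been seen. A match is a description of the letters and shows no binding.

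Bdh1 (NCBI gene 117099), the mitochondrial 3-hydroxybutyrate dehydrogenase that interconverts the ketone bodies, had the smallest p and was called under every alternative in which it was tested. Its lean control arrays read 4.0, 4.16, 2.91, 3.99 and 4.20. Its obese arrays read 2.39, 2.2, 1.54, 2.54 and 2.75. Its resveratrol arrays read 2.40, 2.58, 2.42, 2.16 and 2.24. All 10 pooled arrays lay below the lowest lean array, which was lean control replicate 3. The pooled mean of 2.32 (SD 0.33, n = 10) against 3.85 (SD 0.54, n = 5) gave a difference of -1.53 (SE 0.21, 95% interval -1.96 to -1.10), or 2.89-fold lower, with an adjusted p of 0.00266 from limma. Over the 15 removals of 1 array the difference ran from -1.77 to -1.44 and the adjusted p from 4.4e-05 to 0.0251, with -1.77 reached without lean control replicate 3. The pooled mean lay at or below the array medians (2.46 to 2.55), a range in which a true signal cannot be told from background, so the 2.89-fold may be off by more than its SE allows.

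The other 5 measured genes of ketone body metabolism gave no call, 4 of them with negative differences, beside 7488 negative of the 14557 tested. Oxct1, the enzyme with which muscle activates acetoacetate for burning, read 9.17, 9.48, 9.37, 9.61 and 9.61 in the lean arrays, 8.82 to 9.29 in the obese arrays and 9.04 to 9.25 in the resveratrol arrays. Its difference was -0.40 (SE 0.09, adjusted p = 0.0827, limma), and the highest obese and resveratrol arrays lay above the lowest lean array. The cytosolic dehydrogenase Bdh2 stood at -0.23 (adjusted p = 0.410) and the monocarboxylate transporter Slc16a7 at -0.38 (adjusted p = 0.453), the latter with all group means at or below the array medians. Acat1, a thiolase of ketone body use, stood at -0.10, and Slc16a1, another monocarboxylate transporter, at 0.00. The list had a median of -0.30, against -0.01 over all genes.

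Aldh6a1 (NCBI gene 81708), the methylmalonate semialdehyde dehydrogenase of valine breakdown, fell by a small amount with little spread. The lean arrays read 8.79, 8.76, 8.64, 8.71 and 8.68, the obese arrays 8.39, 8.42, 8.23, 8.30 and 8.22, and the resveratrol arrays 8.46, 8.28, 8.25, 8.29 and 8.31. No pooled array reached the lowest lean array, and the obese and resveratrol means were 8.31 and 8.32. The difference was -0.40 (SE 0.07, adjusted p = 0.0423, limma), or 1.32-fold lower. Of the 18 measured genes of branched-chain amino acid breakdown, Aldh6a1 was the 1 called, 16 were negative and the median was -0.07. Over all 14557 genes, 13 were called (0.0893%) and 7488 were negative. Hibadh, which acts just before Aldh6a1 on the valine branch, had arrays that did not overlap (-0.27, adjusted p = 0.212), which held for 60 of all genes (0.412%), 13 higher (0.0893%) and 47 lower (0.323%). The phosphatase Ppm1k, which activates the branched-chain ketoacid dehydrogenase, stood at -0.37 (adjusted p = 0.242), the isovaleryl-CoA dehydrogenase Ivd at -0.23 and the short branched-chain acyl-CoA dehydrogenase Acadsb at -0.19. The subunits of the branched-chain ketoacid dehydrogenase itself stood at 0.00 (Bckdha), -0.05 (Bckdhb) and -0.18 (Dbt), each with an unadjusted p above 0.1.

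**Figure D2:**
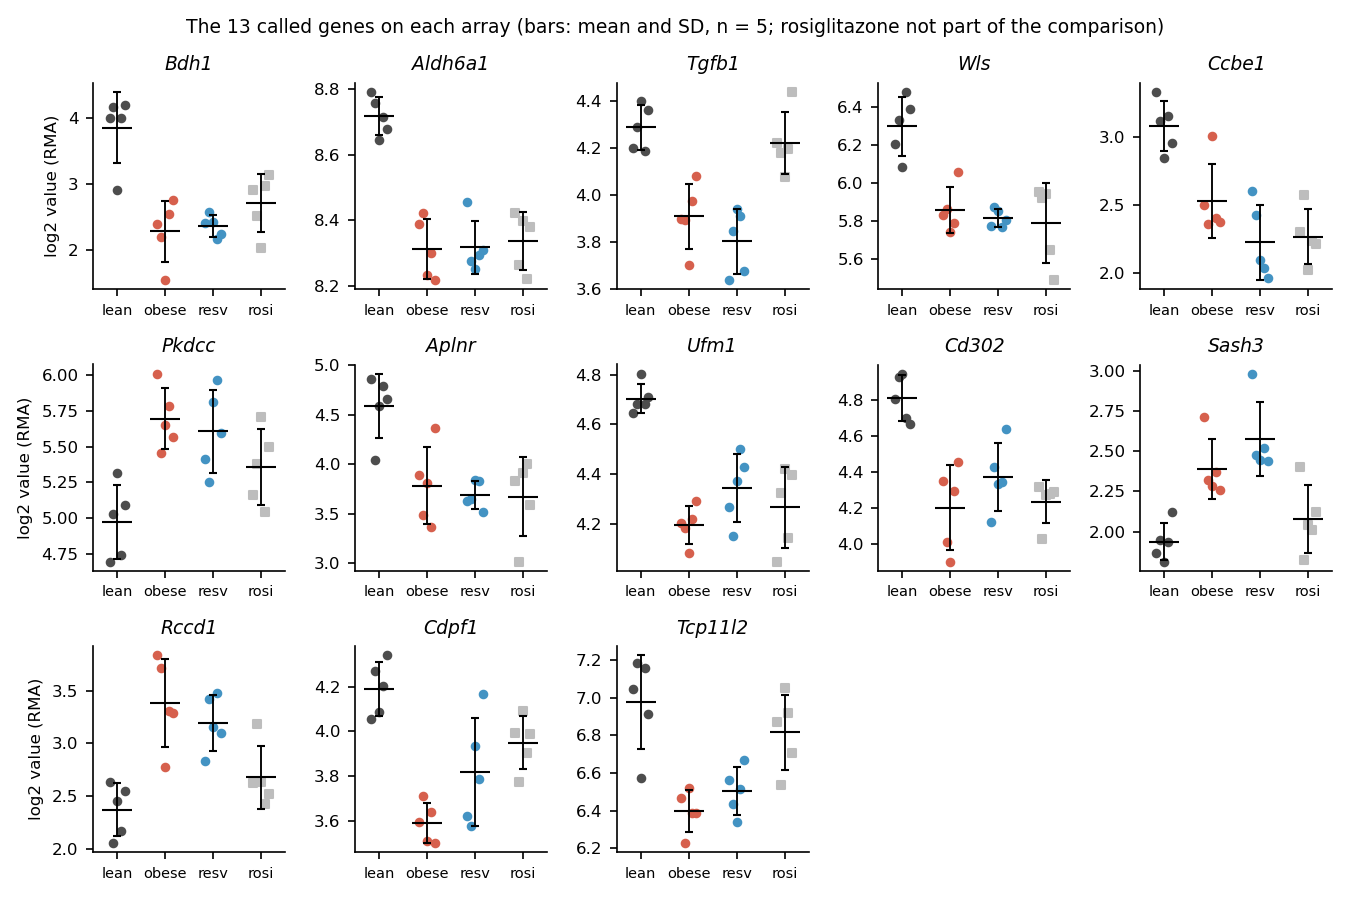
The log2 level of each called gene on every array, with 1 panel per gene, points for single arrays, a line for the mean of each group and bars for the SD (n = 5). In Bdh1 and Aldh6a1 all obese and resveratrol arrays lie below all lean control arrays.

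Several of the other called genes encode secreted or signalling proteins. Tgfb1, a cytokine that drives matrix production, read 4.20, 4.29, 4.40, 4.19 and 4.36 in the lean arrays, 3.70 to 4.08 in the obese arrays and 3.64 to 3.94 in the resveratrol arrays, with no overlap. It fell by 0.43 (SE 0.08, adjusted p = 0.0485). Wls, the carrier that takes Wnt proteins to the cell surface, read 6.09 to 6.48 in the lean arrays and 5.74 to 6.06 in the pooled arrays, again with no overlap, and fell by 0.46 (SE 0.09, adjusted p = 0.0485). Obese replicate 5, at 6.06, came closest to the lean arrays, and the other 9 pooled arrays reached no higher than 5.87.

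Ccbe1, a secreted protein needed for the growth of lymphatic vessels, read 3.33, 3.12, 2.85, 3.16 and 2.96 in the lean arrays, 2.5, 2.36, 3.01, 2.40 and 2.37 in the obese arrays and 2.60, 2.43, 2.09, 2.03 and 1.96 in the resveratrol arrays. Obese replicate 3 lay among the lean arrays and the other 9 pooled arrays lay below all of them. The difference was -0.71 (SE 0.13, adjusted p = 0.0423, limma), with the pooled mean again at or below the array medians. Aplnr, the receptor for apelin on endothelial cells, read 4.87, 4.04, 4.59, 4.79 and 4.66 in the lean arrays, 3.37 to 4.36 in the obese arrays and 3.52 to 3.84 in the resveratrol arrays. It fell by 0.85 (SE 0.16, adjusted p = 0.0485, limma), and 9 of 10 pooled arrays lay below all lean arrays. Pkdcc, a secreted tyrosine kinase, rose by 0.68 (SE 0.13, adjusted p = 0.0485). It read 4.70 to 5.32 in the lean arrays and 5.25 to 6.01 in the pooled arrays, 9 of 10 of them above all lean arrays.

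The remaining called genes act within cells or on immune cells. Ufm1, a ubiquitin-like modifier linked to the endoplasmic reticulum, read 4.64 to 4.80 in the lean arrays and 4.08 to 4.50 in the pooled arrays and fell by 0.43 (SE 0.08). The C-type lectin receptor Cd302 read 4.67 to 4.95 in the lean arrays and 3.90 to 4.64 in the pooled arrays and fell by 0.52 (SE 0.10). Neither gene had overlapping arrays, and both had an adjusted p of 0.0485 from limma, as did Cdpf1, Tcp11l2 and Sash3. Cdpf1 fell by 0.49 (SE 0.09) and Tcp11l2 by 0.52 (SE 0.10), each with 9 of 10 pooled arrays below all lean arrays. Sash3, a signalling adaptor of lymphocytes, rose by 0.55 (SE 0.11) from a lean mean of 1.94, below the array medians, so its size is uncertain too. Its arrays did not overlap, at 1.81 to 2.12 in lean and 2.26 to 2.98 in pooled muscle. Rccd1, an RCC1-domain protein, rose by 0.92 (SE 0.16, adjusted p = 0.0423). Its lean arrays read 2.63, 2.05, 2.46, 2.17 and 2.54, its obese arrays 3.83, 3.71, 2.78, 3.30 and 3.29, and its resveratrol arrays 2.83, 3.42, 3.15, 3.48 and 3.09, with no overlap but with the lean level near the array medians. In all, 8 of the 13 called genes had no overlap between pooled and lean arrays, beside 60 of all 14557 genes (0.412%). The 13 were chosen for a small p in the same contrast, so this count is no added support. Just past the threshold lay Zfp385d at -0.49 and Rai2 at 0.56, both with an adjusted p of 0.0505.

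Whether the pooled groups agree was asked with the difference resveratrol minus obese, which uses no lean array. No gene was called in it (0 of 14557, limma, smallest adjusted p = 0.509), and 1078 genes (7.41%) had an unadjusted p under 0.05. Among the 13 called genes the difference ran in size from 0.005 to 0.31 with a median of 0.11, and over all genes the median size was 0.11. Bdh1 differed by 0.08 (95% interval -0.42 to 0.57), so a difference of up to 0.57 between the groups lies within its interval. Aldh6a1 differed by 0.00 (95% interval -0.17 to 0.18). Ccbe1 was lower in the resveratrol than in the obese arrays by -0.31 (95% interval -0.61 to -0.003, unadjusted p = 0.0478, limma), and Cdpf1 was higher by 0.23 (95% interval 0.002 to 0.45, unadjusted p = 0.0485). Neither passed after adjustment over all genes, and for the other 11 the interval included 0. Against the shared lean arrays, the obese and resveratrol differences were -1.57 and -1.49 for Bdh1, -0.38 and -0.49 for Tgfb1, -0.80 and -0.90 for Aplnr, and 1.01 and 0.82 for Rccd1.

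**Figure D3:**
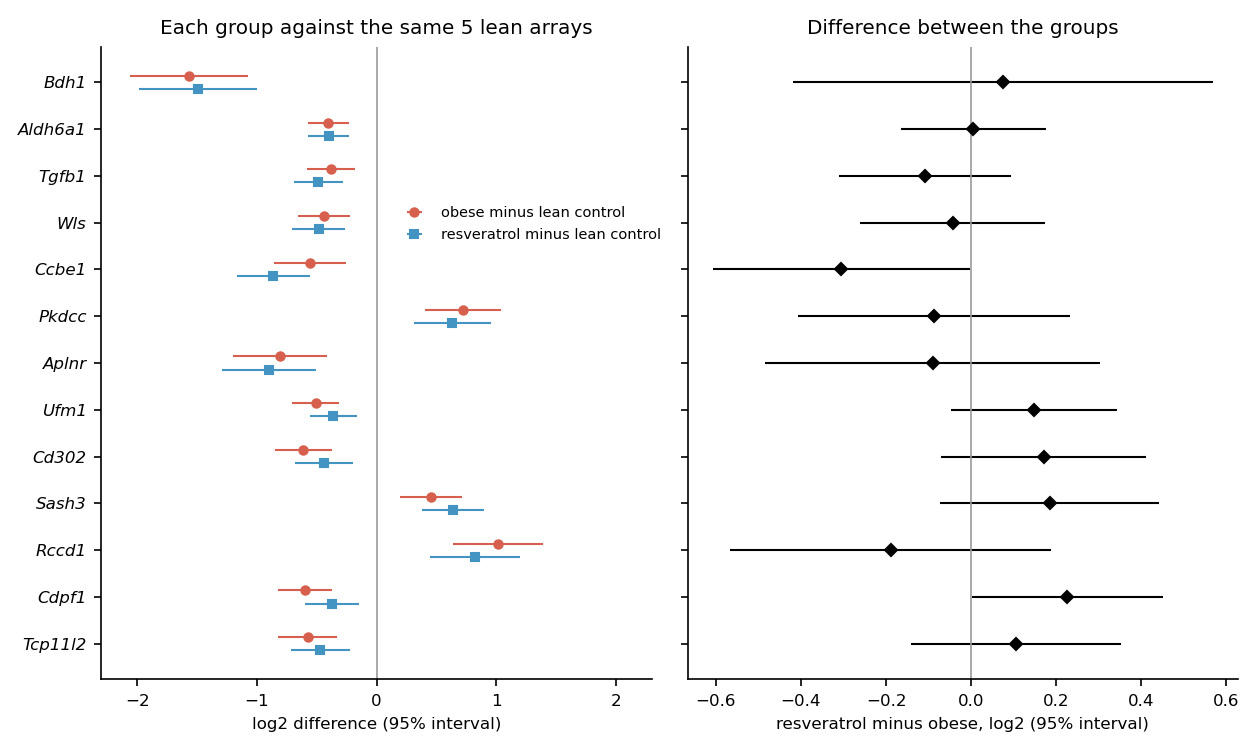
The left panel gives the obese and the resveratrol difference from the same 5 lean control arrays for each called gene, and the right panel the resveratrol minus obese difference, all in log2 units with 95% intervals. The intervals in the right panel include 0 for all but Ccbe1 and Cdpf1.

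For some lipid genes the pooled mean averaged unlike values of the groups, although no difference between the groups passed the test. Scd, the stearoyl-CoA desaturase that makes monounsaturated fatty acids, read 4.30, 3.18, 4.6, 3.49 and 3.69 in the resveratrol arrays and 1.98, 1.62, 2.46, 2.31 and 4.03 in the obese arrays. The lean arrays read 2.73, 2.0, 4.17, 1.97 and 1.88, so 1 obese and 1 lean array sat at resveratrol levels. The resveratrol mean of 3.85 stood against an obese mean of 2.48 and a lean mean of 2.55, both at the array medians, so no size of the difference is given (unadjusted p = 0.0044, adjusted p = 0.563, limma). The pooled difference was 0.62 (adjusted p = 0.601). Thrsp, a nuclear protein that responds to thyroid hormone and feeding, read 2.74 to 3.34 in the obese arrays, 3.54 to 4.19 in the resveratrol arrays and 3.83 to 4.32 in the lean arrays. Here the obese arrays were the low ones, with resveratrol minus obese at 0.77 (95% interval 0.32 to 1.22, unadjusted p = 0.0018). Adipoq, the adipocyte hormone adiponectin, differed by 0.77 in the same direction (unadjusted p = 0.0234). None of these differences passed after adjustment, and all were picked for description with earlier results known.

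Fat-burning genes were mostly positive, and none was called. Of 23 measured genes of beta-oxidation 18 were positive, beside 7069 of 14557 over all genes, with a median of 0.16. At an unadjusted p under 0.05 there were 7 higher and 1 lower, against 4.57% higher and 5.81% lower over all genes. Decr1, the 2,4-dienoyl-CoA reductase needed to burn polyunsaturated fatty acids, read 5.61, 5.87, 5.90, 5.63 and 5.36 in the lean arrays, 5.79 to 6.51 in the obese arrays and 6.02 to 6.29 in the resveratrol arrays. Its difference was 0.51 (SE 0.13, adjusted p = 0.135), and all resveratrol arrays lay above all lean arrays. The short-chain dehydrogenase Acads stood at 0.31, the trifunctional protein subunit Hadha at 0.24 and the isomerase Ech1 at 0.29. Ehhadh, the peroxisomal bifunctional enzyme, went the other way at -0.43 (adjusted p = 0.388).

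Of 14 genes of fatty acid uptake and transport 10 were positive, beside 7069 of 14557 over all genes, with a median of 0.15. Gpihbp1, which anchors lipoprotein lipase to capillaries, stood at 0.47 (adjusted p = 0.145), and the fatty acid transporter Cd36 at 0.28 (adjusted p = 0.311). The fasting-responsive list, with 10 of 14 positive and a median of 0.25, held the wide-ranging genes. Pdk4, the kinase that restrains pyruvate oxidation, stood at 0.57 (adjusted p = 0.330), Foxo1, a transcription factor of fasted muscle, at 0.72 (adjusted p = 0.258), and the lipid droplet protein Plin5 at 0.55 (adjusted p = 0.361).

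Ucp3 and Angptl4 ranged more widely among the lean arrays than between the group means. Ucp3, a mitochondrial carrier, read 5.96, 9.31, 8.83, 6.51 and 6.86 in the lean arrays and 7.25 to 9.27 in the pooled arrays (difference 0.83, adjusted p = 0.610). Angptl4, an inhibitor of lipoprotein lipase, read 2.49, 5.35, 5.32, 2.15 and 3.25 in the lean arrays and 3.21 to 6.09 in the pooled arrays (difference 1.07, adjusted p = 0.487). Lean replicates 2 and 3 were the high ones for both. The clock factor Bmal1 read 3.10, 6.35, 5.33, 3.20 and 3.29 on the same arrays, and the clock output factor Dbp 9.14, 6.43, 6.89, 8.61 and 8.82, so those arrays were also the highest in Bmal1 and the lowest in Dbp. The time of day of tissue collection is not given in the sources used here. With a clock score of each array as a covariate, the differences became 0.29 for Ucp3, 0.59 for Angptl4 and 0.37 for Pdk4, and the count of called genes became 1, Bdh1 (adjusted p = 0.00897, limma).

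Lipid synthesis had a negative median, at -0.26 for the obese and -0.11 for the resveratrol arrays. Of 13 genes 8 were negative, beside 7488 of 14557 over all genes, and none was called. At an unadjusted p under 0.05 there were 5 lower and 0 higher, against 5.81% lower and 4.57% higher over all genes. The 5 lower ones were the desaturases Fads1 (-0.46, adjusted p = 0.251) and Fads2 (-0.51), the triglyceride-forming Dgat2 (-0.29), Scd2 (-0.43) and Thrsp (-0.55, adjusted p = 0.280). Thrsp stood at -0.93 for the obese and -0.16 for the resveratrol arrays. The median of -0.15 became -0.03 with the clock score as a covariate. Cholesterol synthesis had 8 of 13 negative and a median of -0.09. No gene of insulin signalling and glucose uptake was called. The insulin-responsive transporter Slc2a4 stood at -0.14 (adjusted p = 0.706), the insulin receptor substrate Irs2 at -0.37 (adjusted p = 0.423) and the mitochondrial coactivator Ppargc1a at -0.15. None of the 18 genes of the citric acid cycle and pyruvate entry had an unadjusted p under 0.05, and the 38 of oxidative phosphorylation had a median of -0.03, with 2 higher and 4 lower at that level.

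Matrix and fibroblast genes had a median of -0.32, with 18 of 19 negative, beside 7488 of 14557 over all genes. Of the 19, 0 were called, against 0.0893% over all genes. At an unadjusted p under 0.05 there were 8 lower and 0 higher, against 5.81% lower and 4.57% higher over all genes. The fibrillar collagen Col3a1 read 7.90, 7.91, 7.80, 7.72 and 8.07 in the lean arrays, 6.96 to 7.66 in the obese arrays and 6.96 to 7.55 in the resveratrol arrays. The groups did not overlap, at a difference of -0.65 (SE 0.16, adjusted p = 0.135, limma). Dermatopontin (Dpt), a matrix protein that binds decorin, did not overlap either, at 6.82 to 6.95 in the lean and 6.04 to 6.77 in the pooled arrays (-0.49, adjusted p = 0.0828). Arrays without overlap were found for 60 of all genes (0.412%), 47 of them lower (0.323%). The proteoglycan decorin (Dcn) stood at -0.45 (adjusted p = 0.0668), with lean arrays at 8.46, 8.41, 8.46, 8.34 and 8.15 and only lean replicate 5 within the pooled range of 7.67 to 8.17. Col1a1 overlapped widely, at 6.52 to 7.26 in the lean and 5.80 to 7.4 in the pooled arrays (-0.36, adjusted p = 0.653), and Postn, a fibroblast-secreted matrix protein, was the 1 positive member at 0.19.

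Among matrix-remodelling enzymes and cytokines Tgfb1 was the 1 called of 17, against 0.0893% over all genes, with a median of -0.14. Of the 17, 11 were negative, beside 7488 of 14557 over all genes. At an unadjusted p under 0.05 there were 2 higher and 3 lower, against 4.57% higher and 5.81% lower over all genes. The collagen cross-linking enzymes split, with Loxl2 at -0.82 (adjusted p = 0.135, pooled mean 2.44, below the array medians) and Lox at 0.67 (adjusted p = 0.326). The basement membrane protein Ntn4 (-0.68, adjusted p = 0.0539), Nid2 (-0.54, adjusted p = 0.113) and the matrix protein Abi3bp (-0.54) were picked with their values known. Fewer cells of a type and less RNA per cell cannot be told apart in whole muscle. The summed linear level of the fibroblast list was 1615 to 1908 in the lean, 1177 to 1784 in the obese and 1196 to 1605 in the resveratrol arrays. Fewer cells of a type and less RNA per cell cannot be told apart in whole muscle. Its median was 1765 in the lean, 1389 in the obese and 1323 in the resveratrol arrays, and the means of Tgfb1, Wls and Ccbe1 were lower too. Array by array they did not always go together. Obese replicate 3 had the highest pooled fibroblast level, 1784, with a high Ccbe1 of 3.01 but the lowest pooled Wls, 5.74. The part of the fibroblast level in those results was not tested.

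**Figure D4:**
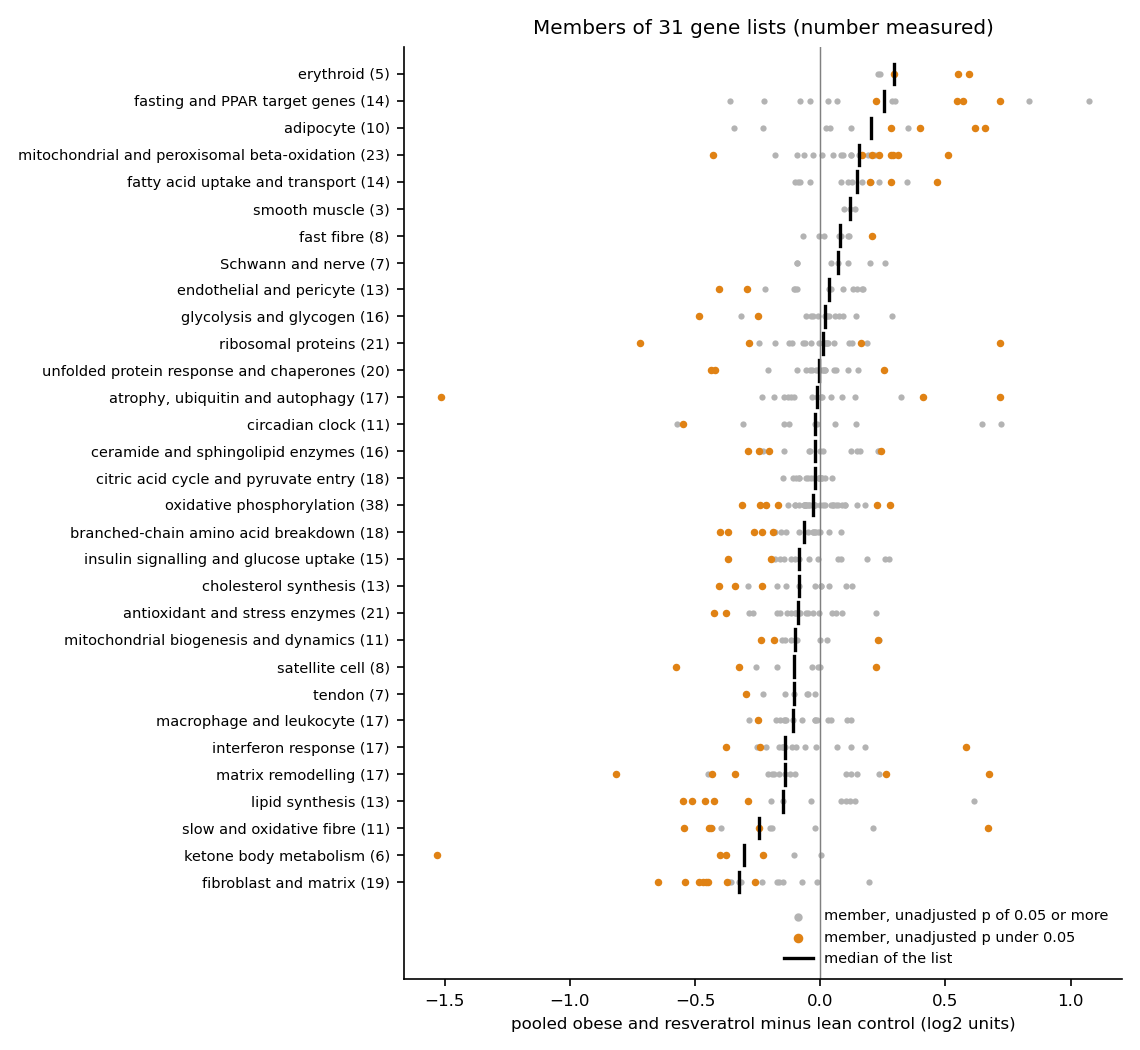
Each row is a gene list with its number of measured genes, each point a member's pooled minus lean difference (log2 units), and the vertical tick the median of the list, with orange points for an unadjusted p under 0.05. Fibroblast and matrix genes and ketone body genes lie lowest, with medians of -0.32 and -0.30, and erythroid and fasting-responsive genes highest with 0.30 and 0.25.

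Muscle fibre genes, which mark the labelled tissue, gave no call. Slow-fibre genes had 9 of 11 negative and a median of -0.24, beside 7488 negative of 14557 over all genes. At an unadjusted p under 0.05 there were 1 higher and 4 lower, against 4.57% higher and 5.81% lower over all genes. The list was led by the calcium pump Atp2a2 (-0.55, adjusted p = 0.287), the slow myosin Myh7 (-0.44) and the slow troponin Tnnt1 (-0.44). Csrp3, a muscle LIM protein, stood at 0.67 (adjusted p = 0.268). Fast-fibre genes had 6 of 8 positive, beside 7069 of 14557 over all genes, and a median of 0.08. The fast myosin Myh4 had a lean mean of 11.50. The fast-fibre median was 0.155 for the obese and 0.006 for the resveratrol arrays, and whether the 2 groups differ in this list was not tested. The summed fast-fibre level was 13024 to 14427 in the lean, 14285 to 15207 in the obese and 12955 to 14630 in the resveratrol arrays. The summed slow-fibre level was 4159 to 5597 in the lean and 3496 to 5692 in the pooled arrays. Lean control replicate 3 and obese replicate 3, the lowest lean and pooled arrays for Bdh1, also had the lowest sums, 4159 and 3496. Obese replicate 5, the highest pooled array for Bdh1 at 2.75, had the highest sum, 5692. Resveratrol replicate 5 went the other way, with the highest resveratrol sum, 4805, and a Bdh1 of 2.24. The part of the slow-fibre level in the calls was not tested.

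Markers of other cell types moved with the pooled groups in part. All 5 measured erythroid genes were positive with a median of 0.30, none called, beside 7069 positive of 14557 over all genes. Their summed level was 74.8 to 111 in the lean and 105 to 209 in the pooled arrays. Hbb-b1, a beta globin, stood at 0.59 (adjusted p = 0.293). Slc4a1, the red cell anion exchanger, stood at 0.55 (adjusted p = 0.329) without overlap, which held for 60 of all genes (0.412%). The 10 adipocyte genes had a median of 0.20, with Fabp4, a fatty acid binding protein, at 0.40 (adjusted p = 0.257) and Adipoq at 0.62 (adjusted p = 0.432), and a summed level of 313 to 474 in the lean and 384 to 610 in the pooled arrays. Endothelial and pericyte genes had a median of 0.04 in the pooled comparison, but -0.003 for the obese and -0.035 for the resveratrol arrays alone. Their summed level was 758 to 781 in the lean and 677 to 772 in the pooled arrays. The endothelial receptor Aplnr fell, and the part of the endothelial level in that fall was not tested. The part of the erythroid and adipocyte levels in the calls was not tested either. Macrophage and leukocyte genes had a median of -0.11, with 13 of 17 negative, beside 7488 of 14557 over all genes. At an unadjusted p under 0.05 (limma) 0 were higher and 1 lower. Sash3, a lymphocyte adaptor outside that list, rose, with its lean and pooled means of 1.94 and 2.48 at or below the array medians.

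Rosiglitazone arrays took no part in the contrast and serve as a side view. Since the called genes were chosen for their distance from the same lean arrays, their rosiglitazone values are a description only. The rosiglitazone mean stood at 2.71 for Bdh1, 8.34 for Aldh6a1, 5.79 for Wls, 3.67 for Aplnr and 2.27 for Ccbe1, against lean means of 3.85, 8.72, 6.30, 4.59 and 3.08. Tgfb1 at 4.22 and Tcp11l2 at 6.82 lay close to their lean means of 4.29 and 6.98. Sash3 at 2.08 and Rccd1 at 2.68 lay nearer to lean means of 1.94 and 2.37 than to pooled means of 2.48 and 3.29. Pkdcc at 5.36 lay between its lean mean of 4.97 and pooled mean of 5.65, and Cdpf1 at 3.95 between 4.19 and 3.71.

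The number of calls depended strongly on single arrays. Without obese replicate 5 there were 46 called genes, 11 higher and 35 lower, including all 13, and without lean control replicate 3 there were 20, including 8 of the 13. Without lean control replicates 1 or 4, obese replicates 1, 2 or 4, or resveratrol replicates 2, 3 or 4 there was 1. There were 2 without lean control replicate 2, 3 without obese replicate 3, 4 without resveratrol replicate 1 or 5, and 5 without lean control replicate 5. The adjusted p values of calls lost in this way lay between 0.0507 and 0.155. Their differences kept their sign in each removal, from 0.84 to 0.99 for Rccd1, from -0.42 to -0.38 for Aldh6a1 and from -0.77 to -0.65 for Ccbe1.

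**Figure D5:**
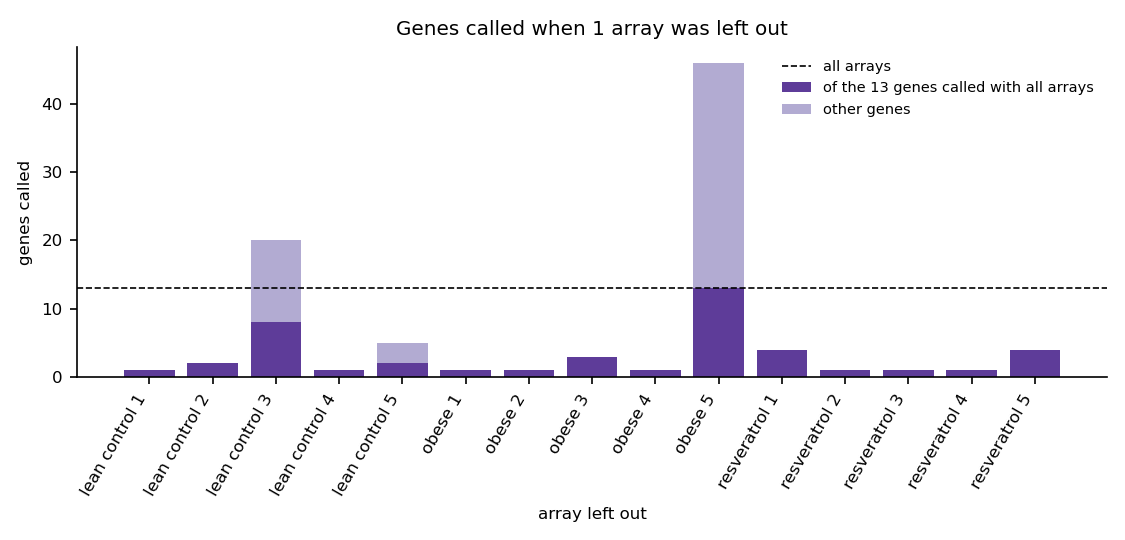
Bars give the number of called genes after removing each of the 15 arrays in turn, dark for genes among the 13 called with all arrays and pale for others, and the dashed line marks 13. The bar reaches 46 without obese replicate 5 and falls to 1 without any one of 8 arrays.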

How the data were processed

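RNA of red TA from 20 male rats, described in the labels as ZDF rats of the strain Zucker, was labelled and hybridised to Affymetrix arrays, 5 per group. The authors deposited log2 values made with RMA, which corrects background, gives all arrays a common distribution and combines the probes of a row. Because RMA equalises the arrays, a shift shared by all genes cannot be seen. The table held 36685 rows. Those with exactly 1 symbol (14824) entered, with the brightest row per gene, leaving 14557 genes. No low-signal filter was applied.

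A mean per group was fitted over all 20 arrays with limma 3.58.1 (R 4.3.3; 16 residual and 6.35 prior degrees of freedom), and the mean of the obese and resveratrol means was compared with the lean mean. Tests were two-sided with Benjamini-Hochberg adjustment over all genes. Array medians were 2.46 to 2.55, within-group correlations 0.964 to 0.974 and the median residual SD 0.222. Precision is limited by the number of arrays.

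The comparison and the 31 gene lists (443 of 613 genes measured) were chosen with earlier results of these data known. Named genes were the 10 highest and 10 lowest called genes, called list members and a set that was always named. List members named without a call, Zfp385d, Rai2, Ntn4, Nid2 and Abi3bp were chosen after their values were seen. Alas2, of the set, is not reported here. Alternatives were a replicate block, trend and robust moderation, brighter genes only, averaged rows, all rows, array weights, median centring, quantile normalisation, a clock score (Bmal1, Clock and Npas2 averaged, less the average of Dbp, Per1, Per2 and Per3) as a covariate, other groupings, and removal of each array. The authors' methods give no fit for this comparison. Python 3.11.15 with pandas 2.3.3 prepared the tables, and matplotlib 3.10.9 drew the plots.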

Additional observations from a re-analysis of the deposited data

Results flagged for a closer look

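Single arrays that lay far from the rest of their group were looked for in 124 sets of values, and 8 were found, where chance flags about 1 in 20 sets. For Bdh1, lean control replicate 3 read 2.91 while the next lean array read 3.99, and among the 10 pooled arrays obese replicate 3 read 1.54 with the next at 2.16. Obese replicate 5 was high among the pooled arrays for Aplnr, at 4.36 with the next at 3.89, and for Wls, at 6.06 with the next at 5.87. Ccbe1 read 3.01 in obese replicate 3, above the next obese array at 2.5. Sash3 read 2.71 in obese replicate 1, above 2.37, and 2.98 in resveratrol replicate 1, above 2.52. Aldh6a1 read 8.46 in resveratrol replicate 1, above 8.31. Obese replicate 5 is also the array whose removal raised the count of called genes from 13 to 46.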

How the results depend on the processing

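The 13 calls, 3 higher and 10 lower, became 15 with the rows of a gene averaged, 16 with median centring (1 higher and 15 lower, 11 of the 13 among them) and 6 with quantile normalisation (3 higher and 3 lower, 5 of the 13), while these scalings moved the median of all genes by -0.02 and 0.00. There were 31 with trend and robust moderation (12 of the 13), 33 among the brighter genes (all 9 of the 13 that were tested there, Bdh1, Rccd1, Sash3 and Ccbe1 being too dim), and 20 with array weights (all 13). There was 1 with all 36685 rows tested together (2 rows passed, 1 of them not the row of a tested gene), with only the 15 arrays, with the 10 pooled arrays as 1 group, with the clock score as a covariate and for the obese arrays alone, and there were 2 for the resveratrol arrays alone. With the replicate number as a block there was 1. The numbers do not pair the arrays: deviations of same-numbered arrays correlated between -0.29 and 0.12, and 2 of 20 arrays were closest to their own number. Removing 1 array gave 1 to 46 calls. Where not stated, the cause of these changes was not tested. Resveratrol against obese gave 0 under every alternative run. Bdh1 kept its call in 27 of 27, with adjusted p values of 4.4e-05 to 0.0356. Scd changed sign with the obese arrays alone (to -0.0702), and Bmal1 with the clock score as a covariate (to -0.0519). The score contains Bmal1 itself, so the latter change follows in part from how the score is built. Dcn passed in 4 alternatives, with adjusted p values of 0.0129 to 0.0480, and Decr1 in 1 (0.0495, without obese replicate 5). List medians changed sign under a scaling only for glycolysis, circadian clock, atrophy, unfolded protein response and ribosomal genes, all close to 0. Signal near the array medians limits what can be said of the size for Bdh1, Ccbe1, Sash3, Rccd1, Scd, Loxl2, Capn6, Trem2 and Slc16a7.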

Other observations

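The ribosomal protein, satellite cell and interferon lists gave scattered values in the pooled comparison, with no member called. The 21 ribosomal protein genes had a median of 0.01. Satellite cell genes had 7 of 8 negative, beside 7488 of 14557 over all genes. Among them was the myogenic factor Myod1 at -0.58 (adjusted p = 0.377, limma). Interferon genes had 13 of 17 negative, while Rsad2, an antiviral enzyme, stood at 0.58 (adjusted p = 0.235).

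Mettl21cl1 ranged widely, with lean arrays at 6.78, 5.07, 5.31, 4.61 and 5.13, obese arrays at 3.90, 2.24, 1.93, 5.00 and 4.94 and resveratrol arrays at 4.84, 4.66, 4.01, 4.53 and 2.61 (difference -1.51, adjusted p = 0.227). Several genes with an adjusted p between 0.05 and 0.1 were picked with their values known. The endoplasmic reticulum junction protein Lnpk stood at -0.64 (adjusted p = 0.0559), and Capn6, a calpain without protease activity, at -0.90 (adjusted p = 0.0668) with a pooled mean of 2.53, near the array medians. Chac1, a glutathione-degrading enzyme of the stress response, stood at -1.24 (adjusted p = 0.0815), and Socs2, a target of growth hormone signalling, at -0.79 (adjusted p = 0.0827). The virus receptor and junction protein Cxadr stood at 0.52 (adjusted p = 0.0683) with no overlap between pooled and lean arrays, which held for 60 of all genes (0.412%). Trarg1, a protein of vesicles that carry the glucose transporter Slc2a4, stood at 0.63 (adjusted p = 0.0668). Trem2, a receptor of macrophages, stood at 0.49 (adjusted p = 0.0827, limma), with a lean mean of 2.66, near the array medians. The macrophage and leukocyte list went the other way, with 13 of 17 negative and a median of -0.11.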
